A study of Mus musculus with 12 samples.

Results

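Subcutaneous MC38 tumors carrying a hairpin against Chrebp were compared with MC38 tumors carrying a control hairpin, over every gene of the deposited count table. The comparison uses 6 of the 12 libraries of the series, and 11780 of the 22274 listed genes had enough counts to be tested. The other libraries of the series, from bone-marrow macrophages, were not analysed here. MC38 is a mouse colon adenocarcinoma line that grows as a tumor in C57BL/6 mice. The shChrebp group (genotype Chrebp knockdown, 3 libraries) came from tumors of MC38 cells with the Chrebp hairpin, and the shCtrl group (genotype WT, 3 libraries) from tumors of MC38 cells with a control hairpin, which the labels' protocols call shNC. Both groups were grown under the skin of the flanks of C57BL/6 mice, and RNA was taken from tumor tissue. The labels give neither the number of hairpins or clones behind a group nor the age of the mice, and they do not say that the libraries came from separate animals. The p-values therefore measure only the spread between these libraries, which may be technical.

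ChREBP, encoded by Mlxipl, is a transcription factor that pairs with Mlx and binds paired E-box motifs, the carbohydrate response elements, in the promoters of genes for glucose use and lipid synthesis. It acts when glucose metabolites are plentiful and is best known from liver, fat and intestine. Its relative Mlxip, also called MondoA, shares the partner Mlx and controls genes such as Txnip.

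The libraries held 17775251, 24181896 and 16010540 counts in shChrebp 1 to 3, against 15844791, 16614902 and 19177328 in shCtrl 1 to 3. Replicates varied little, with a common biological coefficient of variation of 0.0388, so that small differences passed the test. Rows were named by their Ensembl identifier, because the symbols Mlxipl and S1pr3 are exchanged in the deposited table. One library stood apart from its group: shCtrl 1 carried transcripts of intestinal epithelium and smooth muscle, which are described last. Results other than family medians are given without it where they differ. Markers of immune and endothelial cells were scarce. Ptprc, counted with the macrophage and monocyte markers, had 0.224, 0.457 and 0.497 CPM in shChrebp, against 0.444, 0.301 and 0.314 CPM in shCtrl. Pecam1, an endothelial marker, had 1.01, 0.457 and 0.497 CPM in shChrebp, against 0.824, 0.422 and 0.576 CPM in shCtrl. Whether such low values go with RNA of whole tumor tissue was not tested. Some fibroblast markers, and Cspg4 among the pericyte markers, were abundant and are given with the matrix genes. Of the 13 fibroblast markers 6 were under 1 CPM on average, and of the 7 pericyte markers 5 were. T cell markers summed to 1.01 to 2.24 CPM (counts scaled to a common library size) in shChrebp, against 1.81 to 2.41 CPM in shCtrl, with 13 of the 14 under 1 CPM on average. Of the 16 macrophage and monocyte markers 13 were under 1 CPM, and the list summed to 37.8 to 42.5 CPM in shChrebp, against 49.95 to 55.9 CPM in shCtrl, most of it from Cd14 and Cd68. Endothelial markers summed to 4.10 to 4.98 CPM in shChrebp, against 6.81 to 7.92 CPM in shCtrl. The part of these cells in the results below was not tested. In RNA of bulk tissue, fewer cells of a type and less RNA per cell cannot be told apart.

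The hairpin's target was near the limit of detection in both groups. Mlxipl had 1, 1 and 2 counts in shChrebp 1 to 3, against 3, 1 and 1 counts in shCtrl 1 to 3. The groups overlapped, and the CPM difference, shChrebp minus shCtrl, was −0.027 (exact two-sided permutation p = 0.6; with 3 libraries per group such a test cannot go below 0.1). Without shCtrl 1 the difference turned to 0.0176 (exact two-sided permutation p = 0.9). The counts of Mlxipl therefore do not check the labels. Mlx, the partner that ChREBP needs to bind DNA, had 32.4, 33.6 and 33.8 CPM in shChrebp, against 27.5, 28.8 and 31.6 CPM in shCtrl (log2 fold change 0.18 ± 0.07, SE, n = 3 per group, edgeR adjusted p = 0.0311). The groups did not overlap, but this call of Mlx was lost with DESeq2 and on leaving out any one of shChrebp 2, shChrebp 3, shCtrl 1 and shCtrl 2. Mlxip had 41.5, 39.8 and 40.7 CPM in shChrebp, against 46.4, 49.8 and 46.6 CPM in shCtrl, and the groups did not overlap (log2 fold change −0.23 ± 0.06, SE, n = 3 per group, edgeR adjusted p = 0.00164). S1pr3, the sphingosine 1-phosphate receptor whose row carries the symbol of the target, had 10.6, 12.2 and 10.1 CPM in shChrebp, against 23.8, 25.96 and 26.2 CPM in shCtrl (log2 fold change −1.20 ± 0.09, SE, n = 3 per group, edgeR adjusted p = 1.30e-12).

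The change reached a large part of the transcriptome. At an adjusted p under 0.05 with no minimum fold change (edgeR's quasi-likelihood test, Benjamini-Hochberg over all tested genes), 4505 of 11780 genes were called, 38.2% of those tested. Of them 2189 (18.6%) were higher and 2316 (19.7%) lower in shChrebp. In 47.6% of tested genes the groups did not overlap in CPM. Of the 4505 called genes 4317 did not overlap, so a statement of no overlap below adds little to a call. Genes named below for the highest and lowest fold changes were chosen among genes without overlap, so for them its absence was fixed by the choice. Many changes were small: 1289 of the genes called higher and 977 of those called lower differed by less than 1.2-fold. The median log2 fold change was 0.23 among genes called higher, −0.30 among genes called lower and −0.0027 over all tested genes.

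Large changes lay on the lower side. A fold change of at least 2 was reached by 351 called genes (2.98%), of which 31 (0.263%) were higher and 320 (2.72%) lower in shChrebp. At 4-fold or more, 0 genes were higher and 52 were lower. Between 1.5-fold and 2-fold, 117 were higher and 293 lower. The genes called lower by at least 2-fold together took 0.391% of the counts in shChrebp, against 1.01% in shCtrl. Those called higher by at least 2-fold took 0.0387% in shChrebp, against 0.0161% in shCtrl. All genes called higher took 28.9% of counts in shChrebp, against 25.04% in shCtrl, and all genes called lower took 21.7% in shChrebp, against 26.3% in shCtrl. Of the 320 genes lower by at least 2-fold, 162 belonged to the lowest decile of tested genes by mean CPM, and 6 to the highest decile. In that lowest decile 51 genes were called higher and 223 lower, while in the highest 323 were called higher and 330 lower. No gene went from 0 counts in every library of one group to 20 or more in every library of the other.

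**Figure D1:**
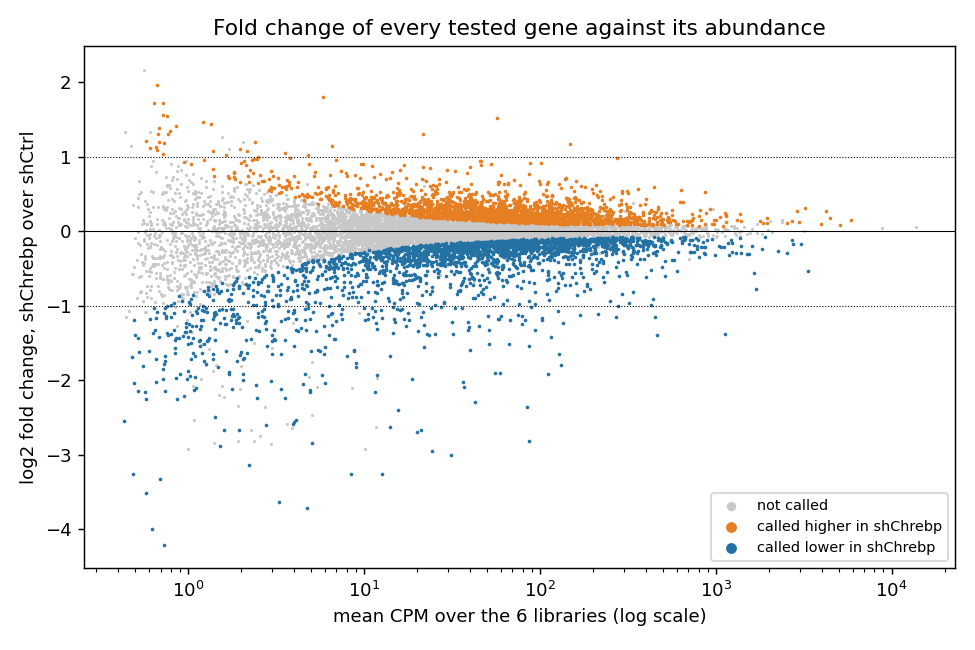
Log2 fold change (shChrebp over shCtrl, vertical axis) against mean CPM over the 6 libraries (log scale, horizontal axis) for the 11780 tested genes; each point is a gene, coloured by its call, and the dotted lines mark a 2-fold change. Of the called genes beyond these lines 320 lie below and 31 above.

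Several of the genes with the lowest fold changes are known from antiviral defence; they were picked by their known role from the 35 lowest and were not counted as a list. Interferons act through ISGF3 and IRF factors, which bind a repeat of GAAA spaced by 2 bases in the promoters of antiviral genes. Rsad2, the antiviral enzyme viperin, had 4.200, 3.82 and 3.73 CPM in shChrebp, against 24.5, 24.04 and 24.3 CPM in shCtrl. Dhx58, a regulator of the RNA sensors of the cytosol, had 13.8, 14.2 and 15.8 CPM in shChrebp, against 58.1, 56.6 and 62.2 CPM in shCtrl. Cmpk2, a nucleotide kinase encoded beside Rsad2, had 7.28, 7.02 and 8.63 CPM in shChrebp, against 28.7, 31.7 and 29.3 CPM in shCtrl. Every shChrebp library lay below every shCtrl library for all of these, with log2 fold changes of −2.63 ± 0.10, −2.02 ± 0.07 and −1.98 ± 0.09 (SE, n = 3 per group) and an edgeR adjusted p of at most 1.58e-17. Irf7, the factor that amplifies interferon production, had 23.7, 23.9 and 22.8 CPM in shChrebp, against 88.1, 88.8 and 86.2 CPM in shCtrl, again without overlap (log2 fold change −1.90 ± 0.05, SE, n = 3 per group, edgeR adjusted p = 1.63e-22). Rnf213, a giant ubiquitin ligase that coats microbes in the cytosol, had one of the largest falls in absolute CPM, with 588, 644 and 654 CPM in shChrebp, against 1468, 1716 and 1706 CPM in shCtrl (log2 fold change −1.38 ± 0.08, SE, n = 3 per group, edgeR adjusted p = 0.0002). Among the 42 tested members of the TRIM family of ubiquitin ligases, many of which act in antiviral signalling, 4 were higher and 18 lower, with a median log2 fold change of −0.13. Without shChrebp 2 or shCtrl 1 the number higher was 2. Trim12c had 12.1, 10.97 and 10.4 CPM in shChrebp, against 33.4, 31.7 and 33.5 CPM in shCtrl, and Trim30d had 9.69, 12.2 and 12.8 CPM in shChrebp, against 29.1, 27.5 and 31.1 CPM in shCtrl, with no overlap in either. The Trim12 and Trim30, Ifit3, Ifi200 and Gbp families hold similar genes, some of them near-identical copies. Reads of such copies could have been split between them, and how the counting treated this is not given in the sources used here.

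The promoters were read from RefSeq's table (GRCm38.p6, the 250 bases before each gene's start), which matched 9233 of the tested genes by symbol. The motif, GAAA, any 2 bases and GAAA again, searched on both strands, stood in 19.4% of the promoters of genes called lower by at least 2-fold (42 of 216), in 5.45% of all genes called lower, in 2.52% of genes called higher and in 0 of 19 genes called higher by at least 2-fold. Over all tested genes with a promoter the share was 3.27%, and over the 32851 promoters of RefSeq's list it was 2.98%. These promoters are not independent, since copies of one family share sequence. The stretches around the match are shown for Ifit3, Rsad2 and Cxcl10, which are among the genes with the lowest fold changes and were chosen after their values were seen, 5′ to 3′ on the strand of the gene, with the matches in capitals:
Ifit3: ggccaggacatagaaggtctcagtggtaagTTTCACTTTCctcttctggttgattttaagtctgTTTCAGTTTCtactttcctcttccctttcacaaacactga
Rsad2: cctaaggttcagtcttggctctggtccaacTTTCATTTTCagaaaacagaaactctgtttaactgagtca
Cxcl10: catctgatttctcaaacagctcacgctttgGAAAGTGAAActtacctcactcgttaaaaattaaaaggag
The Ifit3 stretch (chr19:34583343-34583446, plus strand) holds 2 matches, the nearer one 112 bases before the start site. The Rsad2 stretch (chr12:26456533-26456602, minus strand) holds its match 110 bases before the start, and the Cxcl10 stretch (chr5:92349063-92349132, minus strand) 203 bases before it. Ifit3, which encodes an antiviral RNA-binding partner, had 20.6, 22.98 and 21.05 CPM in shChrebp, against 153, 149 and 155 CPM in shCtrl (log2 fold change −2.81 ± 0.05, SE, n = 3 per group, edgeR adjusted p = 2.64e-27). Cxcl10, a chemokine for T cells, had 6.05, 4.36 and 6.02 CPM in shChrebp, against 34.7, 34.8 and 35.03 CPM in shCtrl (log2 fold change −2.69 ± 0.10, SE, n = 3 per group, edgeR adjusted p = 4.14e-20). A match is a description of these letters and not of a bound site.

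One form of the carbohydrate response element was searched on both strands of the same promoters. It was a pair of CACGNG boxes in the same orientation with any 5 bases between them. Pairs with the second box inverted were not searched, so the counts below do not cover all such elements. This form was found in 8 of the 9233 genes, 0.0866%, against 0.0457% of all promoters. Of these 8 genes 2 were called higher and 4 lower. Txnip, the glucose-responsive arrestin that binds thioredoxin and slows glucose uptake, was the lowest, with 14.4, 14.2 and 13.6 CPM in shChrebp, against 40.6, 36.3 and 34.03 CPM in shCtrl (log2 fold change −1.39 ± 0.08, SE, n = 3 per group, edgeR adjusted p = 2.85e-15). The highest was Fnip1, a partner of folliculin in nutrient sensing, with 152, 158 and 162 CPM in shChrebp, against 99.6, 105 and 99.6 CPM in shCtrl (log2 fold change 0.63 ± 0.04, SE, n = 3 per group, edgeR adjusted p = 5.90e-14). Neither gene's groups overlapped, and they lay on opposite sides of 0. Nfkb2 and Man2b2 were called lower at −0.22 and −0.20, and Irak1bp1 was called higher at 0.30. The single E-box CACGTG, which the longer motif can contain, stood in 14.4% of genes called higher, 9.52% of genes called lower and 9.88% of all tested genes with a promoter. Its extended form, with GT before and AC after it, known as the core of the CLEAR element that TFEB binds at lysosomal genes, stood in 1.23% of genes called higher (21 of 1705), 0.385% of genes called lower and 0.617% of all tested genes with a promoter. The promoters of Txnip and of Crebrf, the gene with this form that had the highest called fold change, are shown with the matches in capitals:
Txnip: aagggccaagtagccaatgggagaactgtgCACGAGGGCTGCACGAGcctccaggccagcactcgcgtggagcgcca
Crebrf: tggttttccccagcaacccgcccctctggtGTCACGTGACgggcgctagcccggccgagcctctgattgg
The Txnip stretch (chr3:96557842-96557918, plus strand) has its match 68 bases before the start site, and the Crebrf stretch (chr17:26715493-26715562, plus strand) 117 bases before it. Crebrf, a regulator of CREB3 factors and of energy balance, had 44.7, 48.8 and 46.4 CPM in shChrebp, against 32.3, 30.7 and 32.2 CPM in shCtrl (log2 fold change 0.56 ± 0.06, SE, n = 3 per group, edgeR adjusted p = 6.22e-09). It was picked after its values were seen.

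Beyond the interferon-type genes, the lowest fold changes took in receptors, secreted enzymes and junction genes. C3, the central complement component, had 25.9, 28.7 and 28.5 CPM in shChrebp, against 141, 139 and 147 CPM in shCtrl (log2 fold change −2.36 ± 0.05, SE, n = 3 per group, edgeR adjusted p = 1.10e-25). Enpp2, or autotaxin, which makes lysophosphatidic acid outside the cell, had 4.82, 5.32 and 4.66 CPM in shChrebp, against 24.6, 27.8 and 26.5 CPM in shCtrl. Ngfr, the low-affinity neurotrophin receptor, had 1.23, 1.04 and 1.12 CPM in shChrebp, against 7.10, 6.75 and 6.60 CPM in shCtrl. All shChrebp libraries lay below all shCtrl libraries for C3, Enpp2 and Ngfr. Trp63, a transcription factor of stratified epithelium, had 1.74, 2.04 and 1.68 CPM in shChrebp, against 7.61, 7.95 and 8.59 CPM in shCtrl (log2 fold change −2.13 ± 0.17, SE, n = 3 per group, edgeR adjusted p = 1.40e-11). It was the only one of the 5 tested skin keratinocyte markers to be called. Krt14, the most abundant of that list, had 85.1, 83.9 and 80.8 CPM in shChrebp, against 94.6, 88.01 and 86.2 CPM in shCtrl, with a log2 fold change of −0.10 and an edgeR adjusted p of 0.0659. Cgnl1, a protein of tight and adherens junctions, had 56.8, 61.1 and 59.1 CPM in shChrebp, against 195, 211 and 209.5 CPM in shCtrl, without overlap (log2 fold change −1.80 ± 0.04, SE, n = 3 per group, edgeR adjusted p = 1.94e-24). Others with log2 fold changes of −2.57 to −2.05 and no overlap were the neural filament gene Nes, the urea transporter Slc14a1, the citrullinating enzyme Padi2, the cytokine Tnfsf15 and the calcium pump Atp2b4, all below 10 CPM in every library.

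**Figure D2:**
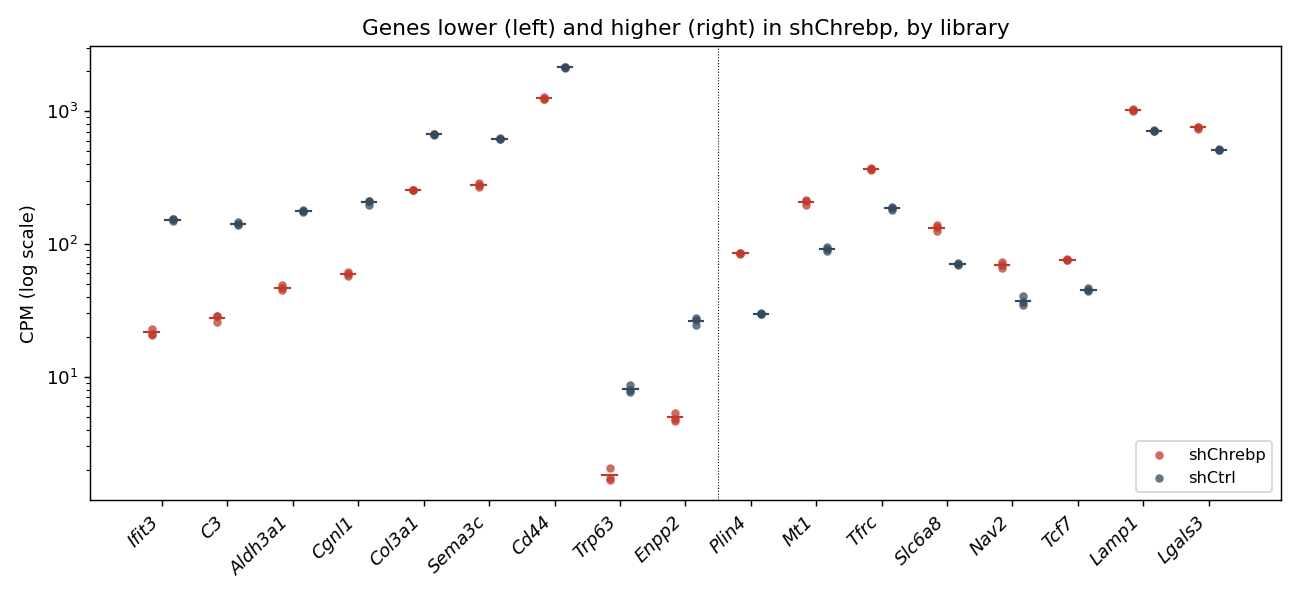
CPM in each library (log scale) of 9 genes called lower and 8 genes called higher in shChrebp; points are the 3 shChrebp and the 3 shCtrl libraries of each gene and short lines their means. In each of these genes the groups do not overlap, as for Ifit3 at 20.6 to 23.0 CPM in shChrebp, against 149 to 155 CPM in shCtrl.

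Actin and tubulin genes were more often lower than higher, while the other cytoskeleton lists did not share this. Of 46 tested actins, myosins, tropomyosins and their partners 26 were lower and 3 higher, with a median log2 fold change of −0.25. Actg1, cytoplasmic gamma actin, had the largest fall in absolute CPM of all genes, with 2781, 2850.4 and 2643 CPM in shChrebp, against 3939.7, 4000.2 and 4018 CPM in shCtrl (log2 fold change −0.53 ± 0.03, SE, n = 3 per group, edgeR adjusted p = 2.25e-15). Vcl, or vinculin, which ties actin to focal adhesions, had 314, 334 and 301 CPM in shChrebp, against 469, 492 and 499.6 CPM in shCtrl. Tagln2, an actin-bundling protein, had 297, 310.3 and 299.8 CPM in shChrebp, against 427, 402 and 403 CPM in shCtrl. The groups did not overlap in Actg1, Vcl or Tagln2. Of 14 tubulins 9 were lower and 1, Tuba4a, was higher, with a median of −0.13. Of 46 kinesins and dyneins, the motors that walk on microtubules, 16 were higher and 6 lower, with a median of 0.08. Kif5b, a motor for organelle transport, had 476, 467 and 479 CPM in shChrebp, against 412, 379 and 375 CPM in shCtrl, and Kif20b, which acts in cell division, had 174, 181 and 188 CPM in shChrebp, against 137, 146 and 147 CPM in shCtrl. In log2 FPKM values 9 of these motors were called higher and 3 lower. Of 47 Rab GTPases, which direct vesicle traffic, 13 were higher and 10 lower, and of 11 septins 2 were higher and 3 lower.

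Laminins and other basement membrane genes showed the highest share of falls of any family with at least 17 tested members: 15 of 18 were lower and 1 was higher, with a median of −0.32. Over the alternative settings 10 to 15 were lower, and 12 when library offsets were adjusted for transcript GC content. Lamb1, a laminin chain, had 233, 247 and 237 CPM in shChrebp, against 308, 314 and 332 CPM in shCtrl (log2 fold change −0.41 ± 0.03, SE, n = 3 per group, edgeR adjusted p = 5.77e-11). Hspg2, or perlecan, had 865, 919 and 865 CPM in shChrebp, against 1069, 1122 and 1132 CPM in shCtrl. Lamb3, a chain of epithelial laminin, had 3.86, 3.16 and 3.54 CPM in shChrebp, against 10.8, 8.13 and 8.80 CPM in shCtrl, and none of these overlapped between groups. Col3a1, a fibrillar collagen, had 256, 253 and 253 CPM in shChrebp, against 672, 670.4 and 666 CPM in shCtrl (log2 fold change −1.40 ± 0.03, SE, n = 3 per group, edgeR adjusted p = 1.72e-25). Of 13 fibroblast markers 6 of the 8 tested were lower, among them Col3a1, Col1a1, Dcn and Pdgfra, while Pdgfrb was not called. The list summed to 1088 to 1111 CPM in shChrebp, against 1674 to 1709 CPM in shCtrl. Pericyte markers summed to 322 to 348 CPM in shChrebp, against 250 to 260 CPM in shCtrl, nearly all of it Cspg4. The other tested pericyte marker, Des, went the other way (log2 fold change −1.18 ± 0.25, SE, n = 3 per group, edgeR adjusted p = 0.00076). Des had 1.96, 2.29 and 2.24 CPM in shChrebp, against 7.42, 3.55 and 3.87 CPM in shCtrl. Its fold change thus leans partly on shCtrl 1, the library with smooth muscle transcripts. Cspg4, a surface proteoglycan, had 328, 346 and 319 CPM in shChrebp, against 244, 245 and 255.4 CPM in shCtrl (log2 fold change 0.42 ± 0.03, SE, n = 3 per group, edgeR adjusted p = 3.49e-11). Whether tumor cells or host cells made these transcripts was not tested.

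In most signalling lists more genes were lower than higher, against 19.7% lower and 18.6% higher over all tested genes. Ephrins and their receptors were level, with 3 higher and 3 lower of 15. Among Hippo pathway genes and YAP targets 10 of 29 were lower and 6 higher. In the TGF-beta and BMP pathway 16 of 45 genes were lower and 7 higher. Tgfbr2, the receptor that binds TGF-beta, had 108, 107 and 99.8 CPM in shChrebp, against 173, 175 and 173 CPM in shCtrl, without overlap (log2 fold change −0.72 ± 0.04, SE, n = 3 per group, edgeR adjusted p = 1.11e-15). Of 34 growth factors and their receptors 12 were lower and 5 higher, or 3 higher without shCtrl 2. Erbb3, a neuregulin receptor, had 5.60, 7.65 and 6.83 CPM in shChrebp, against 14.6, 14.8 and 14.2 CPM in shCtrl, again without overlap. Of 22 semaphorins, plexins and neuropilins 9 were lower and 5 higher, of which 3 were called higher without shChrebp 3, shCtrl 2 or shCtrl 3. Sema3c, a secreted guidance cue, had 279, 289.6 and 267 CPM in shChrebp, against 633, 613 and 616 CPM in shCtrl (log2 fold change −1.15 ± 0.03, SE, n = 3 per group, edgeR adjusted p = 1.68e-22). Cd44, the hyaluronan receptor, had 1271, 1244 and 1233 CPM in shChrebp, against 2134, 2130.1 and 2165 CPM in shCtrl, without overlap (log2 fold change −0.78 ± 0.03, SE, n = 3 per group, edgeR adjusted p = 3.86e-20). Of 17 integrins 4 were higher and 4 lower, but 2 were higher and 1 lower in log2 FPKM values, and 2 were lower without shChrebp 3 or shCtrl 3. Itga7, a laminin-binding integrin, had 8.12, 8.10 and 8.51 CPM in shChrebp, against 18.2, 23.1 and 22.4 CPM in shCtrl, and the integrin-like Itgbl1 had 135, 131 and 136 CPM in shChrebp, against 86.9, 83.4 and 89.02 CPM in shCtrl. These stood apart in opposite directions. Cdh2, or N-cadherin, had 119, 128 and 121 CPM in shChrebp, against 85.6, 85.1 and 89.4 CPM in shCtrl (log2 fold change 0.50 ± 0.04, SE, n = 3 per group, edgeR adjusted p = 3.94e-11). The Notch list, with 4 higher and 6 lower of 26, had shares near those of all genes. The Wnt list had 4 higher and 6 lower of 28, but 2 lower in log2 FPKM values and 3 lower with DESeq2, under the filter on mean counts (50), and without shChrebp 1 or shCtrl 3.

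Enzymes that handle aldehydes and foreign compounds were lower as groups. Of 18 sulfotransferases, glucuronosyltransferases and glutathione transferases 11 were lower and 0 higher in edgeR, with a median of −0.58. Of 17 cytochrome P450 enzymes 8 were lower and 0 higher, with a median of −0.46. In each of these lists 1 gene was higher at an unadjusted p under 0.05, and DESeq2 called 0 higher. Of 29 aldehyde, alcohol and aldo-keto enzymes 13 were lower and 2 higher (1 higher without shChrebp 2 or shChrebp 3), with a median of −0.13. Aldh3a1, which oxidises aromatic and lipid aldehydes, had 46.8, 48.8 and 45.1 CPM in shChrebp, against 180.3, 174 and 176 CPM in shCtrl (log2 fold change −1.91 ± 0.04, SE, n = 3 per group, edgeR adjusted p = 4.68e-25). Aldh1a1, a retinaldehyde dehydrogenase, had 1.90, 1.87 and 2.05 CPM in shChrebp, against 7.42, 8.19 and 6.39 CPM in shCtrl. Cyp26b1, which breaks down retinoic acid, had 8.46, 8.39 and 8.75 CPM in shChrebp, against 14.5, 14.9 and 16.2 CPM in shCtrl, and the groups did not overlap in Aldh3a1, Aldh1a1 or Cyp26b1. Gstp1, a glutathione transferase, had 139, 127 and 119.5 CPM in shChrebp, against 199, 190.5 and 181 CPM in shCtrl. Ugt1a6a, which shares exons with the other Ugt1a genes so that its reads are uncertain, had 11.3, 16.3 and 13.7 CPM in shChrebp, against 29.9, 30.2 and 28.7 CPM in shCtrl. Most P450 genes were rare, and DESeq2 called 3 of them lower. Leaving out shChrebp 2 or shChrebp 3 left 5.

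The genes with the highest fold changes were mixed in function. Fam180a had 9.58, 7.52 and 10.4 CPM in shChrebp, against 2.73, 2.11 and 2.98 CPM in shCtrl (log2 fold change 1.79 ± 0.17, SE, n = 3 per group, edgeR adjusted p = 3.92e-10). Plin4, which coats lipid droplets, had 85.9, 85.9 and 84.1 CPM in shChrebp, against 29.7, 30.4 and 29.4 CPM in shCtrl (log2 fold change 1.52 ± 0.05, SE, n = 3 per group, edgeR adjusted p = 1.01e-20). Mt1, a metallothionein that binds zinc and copper, had 215, 197 and 209.8 CPM in shChrebp, against 88.9, 95.5 and 91.2 CPM in shCtrl, and Tfrc, the receptor for transferrin-bound iron, had 363, 370.0 and 365 CPM in shChrebp, against 179, 191 and 186 CPM in shCtrl. The groups did not overlap in any of these, nor in Havcr2, an immune checkpoint receptor, at a log2 fold change of 1.30. Others of the 35 highest act in lysosomes or on sugars. Neu1, the lysosomal sialidase, had 21.95, 22.1 and 21.98 CPM in shChrebp, against 12.1, 12.2 and 11.4 CPM in shCtrl. Galc, the lysosomal galactosylceramidase, had 30.9, 30.1 and 30.9 CPM in shChrebp, against 17.2, 17.3 and 16.6 CPM in shCtrl. Ctns, the lysosomal cystine exporter, had 54.2, 44.8 and 47.9 CPM in shChrebp, against 28.3, 29.5 and 27.3 CPM in shCtrl, and none of these overlapped. Lamp1, a major lysosomal membrane protein, was among the 10 genes with the largest rises in absolute CPM, with 1006, 1044 and 1018 CPM in shChrebp, against 716, 711 and 709 CPM in shCtrl (log2 fold change 0.52 ± 0.03, SE, n = 3 per group, edgeR adjusted p = 1.91e-15). Gnpda1 and Renbp, enzymes of hexosamine breakdown, had log2 fold changes of 0.94 and 0.82. Gnpda1 had 59.8, 63.03 and 57.7 CPM in shChrebp, against 31.6, 31.9 and 30.9 CPM in shCtrl. Slc6a8, the creatine transporter, had 134, 138 and 125 CPM in shChrebp, against 69.2, 71.6 and 70.2 CPM in shCtrl (log2 fold change 0.92 ± 0.04, SE, n = 3 per group, edgeR adjusted p = 6.14e-17). Every shChrebp library exceeded every shCtrl library in Gnpda1 and Slc6a8. Nav2, which acts in neurite growth, had 66.1, 73.2 and 68.9 CPM in shChrebp, against 34.4, 40.5 and 36.3 CPM in shCtrl. Tcf7, a transcription factor of the Wnt pathway, had 75.3, 76.3 and 76.1 CPM in shChrebp, against 44.8, 46.3 and 44.4 CPM in shCtrl (log2 fold change 0.75 ± 0.05, SE, n = 3 per group, edgeR adjusted p = 1.06e-13). Lgals3, or galectin 3, had 729.8, 764 and 766 CPM in shChrebp, against 519, 508 and 513 CPM in shCtrl, in contrast to Lgals9, which had 117, 125 and 128 CPM in shChrebp, against 203, 196 and 202 CPM in shCtrl. The lectin and gasdermin list as a whole had 7 lower and 1 higher of 13 tested, with 4 lower in log2 FPKM values.

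Protein-folding genes held some of the largest rises in absolute CPM. Of 60 heat shock proteins 17 were higher and 6 lower, with a median of 0.03. Hspa8, the constitutive HSP70 chaperone, had 4556, 4759.9 and 4516 CPM in shChrebp, against 3794, 3748 and 3917 CPM in shCtrl (log2 fold change 0.27 ± 0.03, SE, n = 3 per group, edgeR adjusted p = 5.59e-09). Hsp90aa1, an HSP90 chaperone, had 3128, 3234 and 3197 CPM in shChrebp, against 2663, 2570.0 and 2677 CPM in shCtrl. Hspa4l, an HSP110-type exchange factor, had 527, 531 and 544 CPM in shChrebp, against 356, 362 and 349 CPM in shCtrl, and Hsph1, another of this type, had 342, 347 and 341 CPM in shChrebp, against 239, 241 and 245 CPM in shCtrl. The groups did not overlap in any of these. The mitochondrial transcripts mt-Atp6, mt-Co2, mt-Co3, mt-Cytb and mt-Nd1 were also among the largest rises in CPM, with log2 fold changes of 0.09 to 0.31. All 5 of these calls were lost when library offsets were adjusted for transcript GC content.

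**Figure D3:**
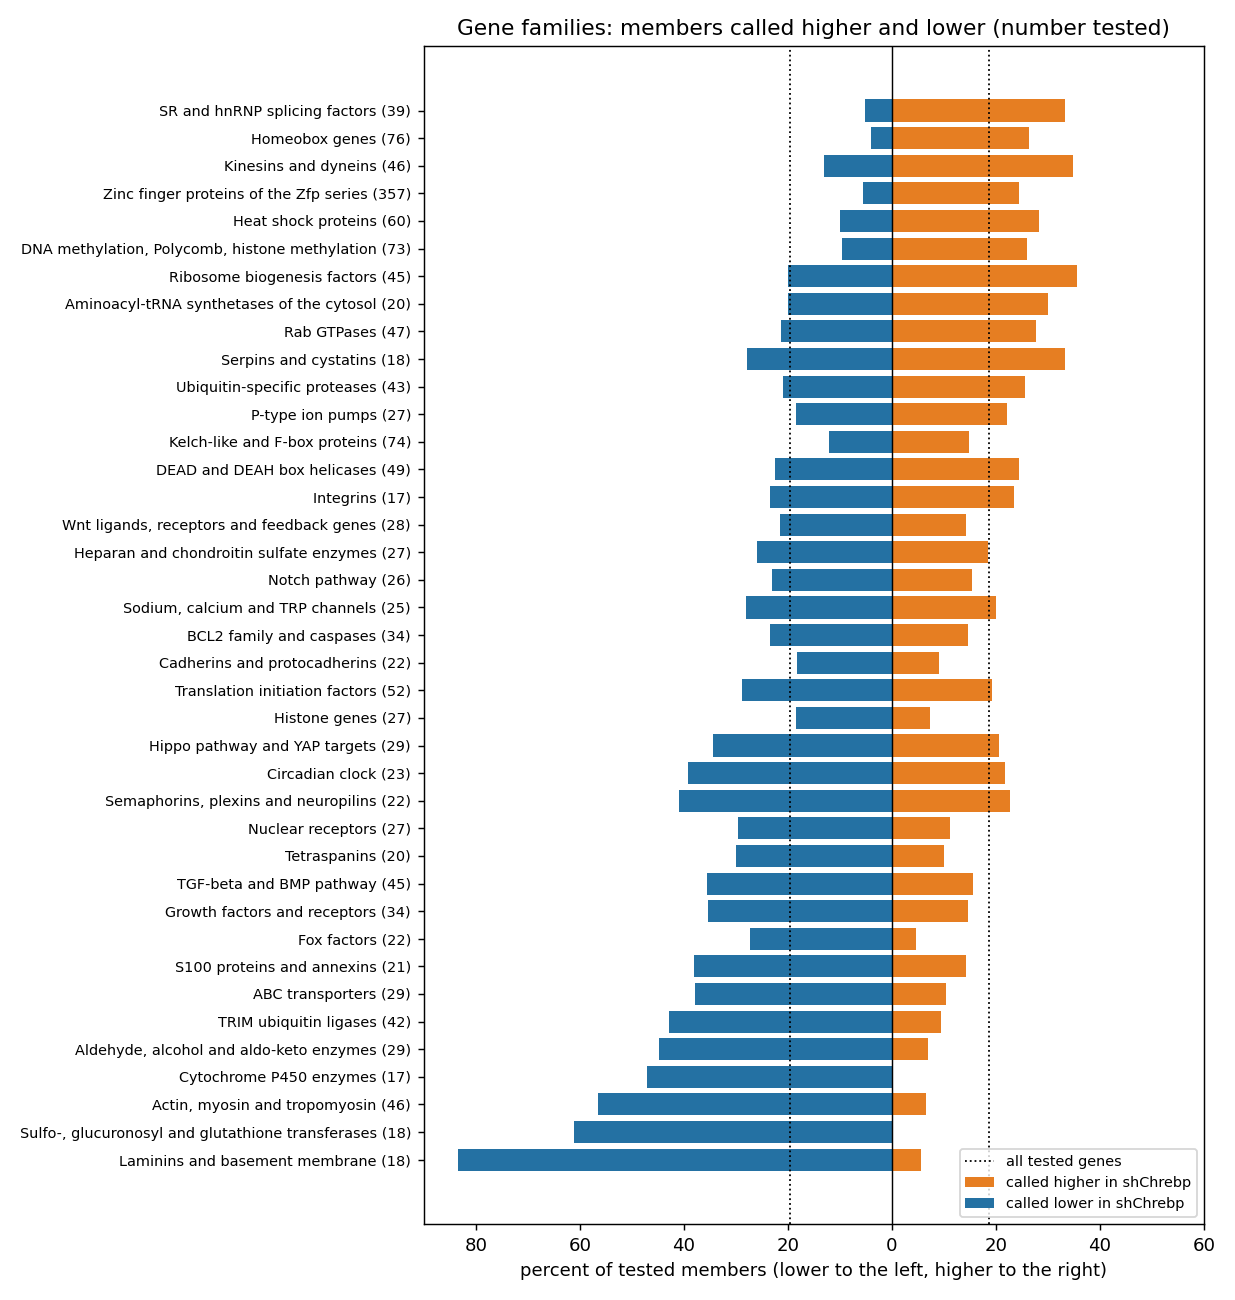
Percent of tested members called higher (right) and called lower (left) in shChrebp for 39 gene families with at least 17 tested members, with the number tested in brackets; dotted lines mark 18.6% higher and 19.7% lower over all tested genes. Basement membrane genes stand at the bottom with 15 of 18 lower, and splicing factors at the top with 13 of 39 higher.

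Lists of nuclear proteins lay on both sides. Fox factors (1 higher and 6 lower of 22) and ETS factors (2 and 5 of 16) had more members lower, at 27.3% and 31.25%, against 19.7% over all tested genes. Histone genes (2 and 5 of 27) had 18.5% lower, near that share, and 7.41% higher, against 18.6% over all tested genes. Their median log2 fold change was 0.00012. Splicing factors, homeobox genes and methylation and Polycomb enzymes had more members higher. Of 39 SR and hnRNP splicing factors 13 were higher and 2 lower, with a median of 0.06, and leaving out single libraries gave 1 to 4 lower. Hnrnpm had 413, 409 and 429 CPM in shChrebp, against 317, 329 and 337 CPM in shCtrl, and Hnrnpa2b1, which like it binds nascent transcripts, had 1037, 979 and 1060.0 CPM in shChrebp, against 847, 812 and 844 CPM in shCtrl. The groups did not overlap in either. Of 76 homeobox genes 20 were higher and 3 lower, with a median of 0.07, and DESeq2 called 12 of them higher. Without shChrebp 2 or shCtrl 3, 1 homeobox gene was lower. Meis2, a cofactor of Hox proteins, had 35.7, 37.2 and 35.02 CPM in shChrebp, against 25.4, 25.9 and 26.2 CPM in shCtrl. Hoxc10 had 58.7, 63.1 and 60.8 CPM in shChrebp, against 48.3, 44.7 and 48.2 CPM in shCtrl. Zeb2, a repressor of epithelial genes, had 89.8, 97.6 and 90.02 CPM in shChrebp, against 69.1, 72.1 and 78.02 CPM in shCtrl. All shChrebp libraries exceeded all shCtrl libraries in Meis2, Hoxc10 and Zeb2. Of 73 enzymes of DNA methylation, Polycomb and histone methylation 19 were higher and 7 lower (4 lower in log2 FPKM values). Bmi1, a Polycomb subunit, had 93.7, 89.1 and 98.2 CPM in shChrebp, against 63.3, 60.2 and 60.01 CPM in shCtrl (log2 fold change 0.61 ± 0.05, SE, n = 3 per group, edgeR adjusted p = 6.24e-12), while Rnf2, its ubiquitin ligase partner, had 107, 112 and 107 CPM in shChrebp, against 136, 132 and 129.8 CPM in shCtrl (log2 fold change −0.28 ± 0.04, SE, n = 3 per group, edgeR adjusted p = 8.89e-07). Of 27 nuclear receptors 3 were higher and 8 lower, and Vdr, the vitamin D receptor, had 33.1, 34.2 and 36.3 CPM in shChrebp, against 52.5, 54.7 and 63.3 CPM in shCtrl. DESeq2, and edgeR without shChrebp 1, each called 5 nuclear receptors lower, and the 3 higher calls shrank to 0 or 1 without shChrebp 3, shCtrl 2 or shCtrl 3.

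Of 23 circadian clock genes 5 were higher and 9 lower, with members on both sides. Arntl, which encodes BMAL1, and Clock form the activating pair, and Per2 and Tef lie downstream of it. Arntl had 45.1, 41.4 and 43.3 CPM in shChrebp, against 30.2, 30.8 and 33.9 CPM in shCtrl. Clock had 127, 134 and 139 CPM in shChrebp, against 105, 108 and 109.6 CPM in shCtrl. Per2 had 2.30, 1.87 and 1.99 CPM in shChrebp, against 5.96, 6.20 and 5.76 CPM in shCtrl, and Tef had 60.4, 61.7 and 61.4 CPM in shChrebp, against 83.1, 83.3 and 86.4 CPM in shCtrl. The groups did not overlap in any of the 4 clock genes, with log2 fold changes of 0.45 for Arntl, 0.31 for Clock, −1.55 for Per2 and −0.46 for Tef. In log2 FPKM values 3 clock genes were called higher and 5 lower. The time of day at which tumors were taken is not given in the labels.

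Zinc finger proteins of the Zfp series and its Zscan and Zkscan relatives, most of which carry C2H2 fingers and many a KRAB domain that recruits silencing factors to DNA, had 87 of 357 members higher and 20 lower, with a median of 0.09. They lie in clusters of similar genes. On chromosome 4, 15 of 27 Zfp genes were higher and 0 lower, on chromosome 13, 15 of 37 and 0, and on chromosome 17, 16 of 44 and 0, whereas on chromosome 7, 10 of 85 were higher and 8 lower. Zfp984 on chromosome 4 had 67.2, 75.4 and 74.7 CPM in shChrebp, against 42.3, 46.5 and 48.3 CPM in shCtrl (log2 fold change 0.66 ± 0.06, SE, n = 3 per group, edgeR adjusted p = 1.08e-10). Zfp992 on the same chromosome had 127, 129 and 127 CPM in shChrebp, against 96.05, 93.8 and 88.2 CPM in shCtrl. Zfp423, a factor of fat and neural precursor cells, had 25.4, 26.9 and 25.3 CPM in shChrebp, against 45.5, 43.01 and 45.9 CPM in shCtrl, with a log2 fold change of −0.79. DESeq2 called 51 Zfp genes higher and 7 lower. Of the 3208 genes called in all with that tool, 1571 were higher and 1637 lower. Without shChrebp 2 edgeR called 10 Zfp genes lower, and without shCtrl 3 it called 12. On chromosomes 4, 13 and 17 no Zfp gene was lower at an unadjusted p under 0.05 or with DESeq2. Reads of such similar genes could have been assigned to the wrong copy.

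The zinc finger genes are poor in G and C, and base composition went with the change over all genes. In the quintile of tested genes with the lowest transcript GC content 689 of 2353 were called higher and 317 lower, with a median log2 fold change of 0.06. In the quintile with the highest GC content 350 of 2353 were called higher and 523 lower, with a median of −0.03. Each shChrebp library lay above 0 in the lowest quintile, at median log2 ratios of 0.0281, 0.0192 and 0.0552 to the mean of all libraries. Each shCtrl library lay below 0 there, at −0.0242, −0.0405 and −0.0329. Within the lowest quintile, 68 of 180 Zfp genes were called higher and 4 lower, with a median of 0.17, against 621 higher and 313 lower of 2173 other genes, with a median of 0.06. With offsets adjusted for GC content, 58 of the 357 Zfp genes were called higher and 26 lower, with a median of 0.06. Over all 11780 tested genes these offsets gave 2052 higher and 2331 lower. The share of Zfp genes called higher was then near that of all genes, while the share called lower was smaller. With the same offsets 15 kinesins and dyneins, 20 homeobox genes, 14 splicing factors and 19 heat shock genes were called higher, against 16, 20, 13 and 17 without them. Of the basement membrane genes 12 were called lower with these offsets, against 15 without them. The part of base composition in the single results was not tested further.

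**Figure D4:**
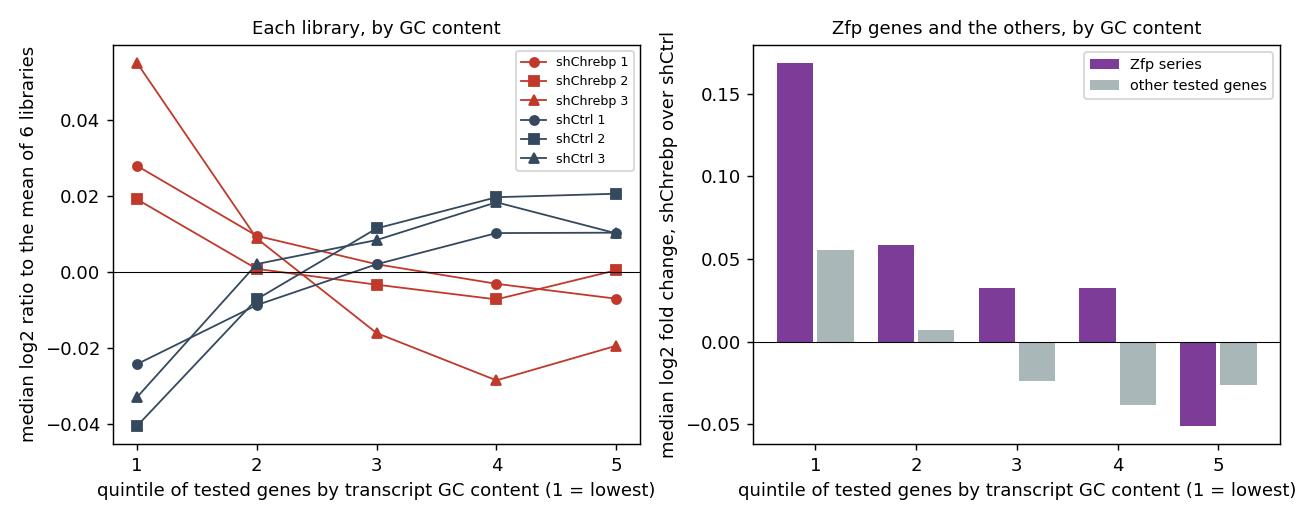
Left, median log2 ratio of each library to the mean of the 6 libraries for the quintiles of tested genes by transcript GC content, with shChrebp libraries in red and shCtrl libraries in dark blue. Right, median log2 fold change (shChrebp over shCtrl) of Zfp genes and of the other tested genes in each quintile; in the lowest quintile the medians are 0.17 and 0.06.

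The highest run of neighbouring genes lay on the distal part of chromosome 2. Among 10191 windows of 21 neighbouring genes, the one from Zfp968 to Gm14327 had the highest median log2 fold change, 0.38, with 11 genes called higher and 0 lower. The stretch between Prelid3b and Fam217b, delimited after these values were seen and therefore described without a test, held 35 tested genes. Of these 17 were higher, 0 lower and 31 above 0, with a median of 0.37 and a median GC content of 40.2%. The number lower was also 0 at an unadjusted p under 0.05 and with DESeq2, and it was 1 without shCtrl 3, with 16 higher. Against a 1.5-fold change (edgeR's glmTreat) 0 of the 35 were called higher, and 3 were higher at an unadjusted p under 0.05. Most have provisional names, 26 with Gm or Rik and 8 of the Zfp series. Zfp970 had 34.8, 33.1 and 34.95 CPM in shChrebp, against 26.2, 25.5 and 25.9 CPM in shCtrl. Zfp966 had 77.00, 77.3 and 87.97 CPM in shChrebp, against 63.8, 64.1 and 64.5 CPM in shCtrl. Zfp973 had 19.2, 17.99 and 21.9 CPM in shChrebp, against 13.9, 12.5 and 15.3 CPM in shCtrl, and in none of the 3 did the groups overlap. With GC-adjusted offsets 11 of the stretch were higher and 0 lower, with a median of 0.29. The next highest separate windows ran from Dnajc16 to Zfp984 on chromosome 4, with a median of 0.29, and from Has1 to Zfp946 on chromosome 17, with a median of 0.24. The lowest windows ran from Alyref2 to Ifi205 on chromosome 1, with a median of −0.33, from Plgrkt to Ifit1 on chromosome 19, at −0.29, and from Cdsn to H2-T22 on chromosome 17, at −0.24. These hold the Ifi200 family, the Ifit family and class I histocompatibility genes.

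Most whole chromosomes had a median log2 fold change near 0, from −0.0353 for chromosome 19 to 0.0322 for chromosome 3, with chromosomes 18 and X above this range. Counting genes that averaged 50 counts or more, 94 of 261 on chromosome 18 were called higher and 26 lower, with a median log2 fold change of 0.09, against 0.0035 over the genes elsewhere. All shChrebp libraries had a median log2 ratio above 0 there, at 0.0383, 0.0368 and 0.0353, and all shCtrl libraries below 0, at −0.0357, −0.0451 and −0.0281. Within each quintile of GC content the chromosome's median was above that of genes outside chromosomes 18 and X, 0.12 against 0.06 in the lowest quintile and 0.03 against −0.02 in the highest. With GC-adjusted offsets 81 were higher and 29 lower, with a median of 0.07. The X chromosome came next, with 93 of 329 genes higher, 47 lower and a median of 0.06, which became 0.02 with GC-adjusted offsets. The number of chromosome copies in the cells was not measured.

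The library shCtrl 1 carried transcripts that were scarce in all others. A total of 127 genes had at least 20 counts there and at least 4 times the CPM of the highest other library. The same rule found 1 gene in shChrebp 1, 1 in shCtrl 3 and 0 in each of the other 3 libraries. The 127 genes summed to 48.6, 46.6 and 54.6 CPM in shChrebp 1 to 3, against 653, 68.9 and 57.8 CPM in shCtrl 1 to 3, and took 0.0650% of the counts of shCtrl 1. Many are genes of intestinal epithelium. Muc2, the gel-forming mucin of goblet cells, had 3.02, 3.12 and 3.48 CPM in shChrebp, against 33.8, 4.16 and 4.08 CPM in shCtrl. Dmbt1, a secreted scavenger receptor of mucosal surfaces, had 3.25, 2.78 and 3.79 CPM in shChrebp, against 52.8, 4.94 and 3.35 CPM in shCtrl. Epcam, an epithelial adhesion protein, had 0.560, 0.457 and 0.373 CPM in shChrebp, against 8.88, 1.02 and 0.576 CPM in shCtrl. In each, shCtrl 1 was high and shCtrl 2 and 3 lay near the shChrebp libraries. Smooth muscle genes were among the 127 too, with Myh11, smooth muscle myosin, at 0.504, 0.623 and 0.683 CPM in shChrebp, against 10.3, 0.783 and 0.838 CPM in shCtrl. The epithelial markers Krt8, Krt18, Krt19 and Epcam were also among them, with 13 of the 19 epithelial marker rows in all. Cdh1, or E-cadherin, was not among them and had 7.17, 6.48 and 5.28 CPM in shChrebp, against 12.6, 6.75 and 4.56 CPM in shCtrl.

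**Figure D5:**
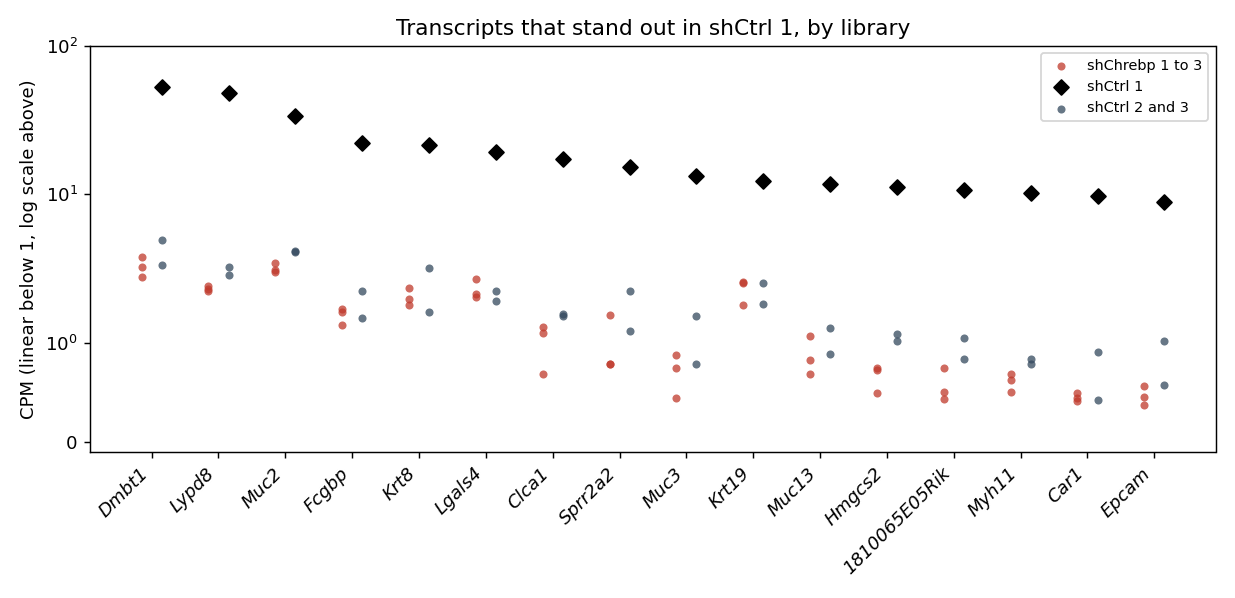
CPM in each library (linear below 1, log scale above) of the 16 genes with the most counts in shCtrl 1 among the 127 that stand out there; red points are shChrebp 1 to 3, diamonds shCtrl 1 and blue points shCtrl 2 and 3. For Muc2 the diamond lies at 33.8 CPM and no other library exceeds 4.16 CPM.

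Of the 127 genes 30 were tested and 1 was called, the protease gene Prss32, at a log2 fold change of −2.22. Genes chosen for standing out in 1 library of a group have a wide spread in that group. The small number of calls among them therefore follows largely from the choice. Without shCtrl 1, 4334 genes were called, 3945 of them shared with the 4505 of the full comparison. Then 309 genes were lower by at least 2-fold, of which 281 were shared, 87.8% of the list with shCtrl 1 and 90.9% of the list without it. Of the 37 genes higher by at least 2-fold without that library 24 were shared with the 31 of the full comparison. The fold changes of the intestinal and smooth muscle genes in the 127 rest on that library, and no group difference is read from them singly. Tested ones that belong to a family list remain in its median, and medians without shCtrl 1 are not given.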

How the data were processed

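Total RNA from TRIzol extracts went into VAHTS Universal V6 libraries, per the labels' protocols. Reads were processed against GRCm39 according to the submitters' processing notes, while the alignment and counting tools and the handling of strand are not given in these sources. For each Ensembl gene the table deposited by the authors holds an estimated count and an FPKM value, per the file headers. Whole numbers made up 92.0% of the counts, and all were rounded for testing. The deposited FPKM values were used for an alternative. Names came from GENCODE vM21 by identifier (22219 of 22274 rows), which describes another build, so no coordinates are given from it; chromosomes and transcript GC content (11762 of the 11780 tested genes) come from it too.

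Groups follow the sample titles. Genes kept by filterByExpr were tested with edgeR 4.0.16 (R 4.3.3): TMM library sizes, robust quasi-likelihood F test, Benjamini-Hochberg over all tested genes, threshold 0.05. CPM are counts scaled by TMM library size, and replicates differed beyond counting noise. The self-test simulated from these libraries recovered 97 of 100 genes changed 2-fold. It gave every gene the common coefficient of variation, so this recovery does not cover genes that vary more, nor changes under 2-fold. Named are Mlxipl and Mlx; the 35 highest and 35 lowest fold changes among called genes that average 50 counts or more and do not overlap, leaving out Gm and Rik models; the 10 largest rises and falls of CPM; and up to 4 called genes per list. Further names, such as Mlxip, S1pr3, Txnip, Fnip1, Crebrf, Cspg4, Krt14 and those on chromosome 2, were chosen after their values were seen. The comparison and the 54 family and 16 marker lists were chosen with earlier results of these data known. One named gene and 1 family list are not reported here. Motifs were counted in the 250 bases before the start in RefSeq's promoter table (GRCm38.p6). Alternatives were DESeq2 1.42.0, other scalings and filters, FPKM values (limma 3.58.1), GC-adjusted offsets (added after seeing the data), a replicate block and leaving out each library.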

Additional observations from a re-analysis of the deposited data

How the results depend on the processing

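Genes called with at least a 2-fold change were mostly lower in each alternative that split them by direction. The balance of all calls, 2189 higher and 2316 lower, turned to more higher than lower in limma on log2(FPKM + 0.1) (1680 higher, 1503 lower) and log2(FPKM + 1) (1685 and 1509), with no count filter (2542 and 2277), with library totals only (2276 and 2226) and without shCtrl 1 (2199 and 2135). In the FPKM fits 184 and 97 were called with at least a 2-fold change, 7 and 4 of them higher and 177 and 93 lower, so that 96.2% and 95.88% were lower. The pseudocount shrinks the fold of low genes. Requiring a mean of 50 counts left 165 genes with at least 2-fold change, 7 higher and 158 lower (95.76% lower), because fewer low genes were tested, and no filter gave 579, of which 536 were lower. DESeq2 called 19 genes higher by at least 2-fold, and 94.85% of its 2-fold calls were lower. The shCtrl 1 rule with 50 counts found 53 genes. Leaving out each library in turn gave 3773 to 4334 called genes, 1805 to 2199 higher and 1968 to 2135 lower, 346 to 385 at 2-fold (26 to 37 higher and 309 to 351 lower), and 89.31% to 92.92% of 2-fold calls lower, against 91.17% with all libraries. The CPM difference of Mlxipl ranged from −0.0522 to 0.0176 and turned positive without shCtrl 1. With GC-adjusted offsets mt-Nd1 turned to −0.03 (edgeR adjusted p = 0.521). Of 294 named genes 266 kept their call in each alternative that tested them and 28 did not in at least 1; the FPKM fits tested 277 of them and the 50-count filter 282. Replicate numbers did not pair the libraries (correlations of same-numbered deviations 0.058, −0.064 and −0.025). With the replicate number as a block, 2264 genes were higher and 2376 lower, and no named gene's call changed. Low counts limit Mlxipl and most host-cell markers.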
